A study of Drosophila melanogaster with 3 samples.

Results

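Among the thresholded binding peaks of the eGFP-tagged protein Coop, 620 (9.36%) had their summit in intergenic sequence far from any promoter, beside 6006 other peaks. A summit is the position of highest signal within a peak. Each of the 620 lay outside every protein-coding gene body and more than 5000 bp from the nearest protein-coding transcription start site (TSS), and these peaks are called members below. The choice used position alone, so signal, agreement between replicates, sequence and neighbouring genes were not part of it. The protein-coding annotation held 13968 genes and 19275 distinct TSS positions. By chromosome arm, 109 members lay on 2L, 96 lay on 2R, 215 on 3L, 142 on 3R, and X held 58. None of the 8 peaks on chromosome 4 was a member, and no list held a region on Y.

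The libraries came from whole prepupae of Drosophila melanogaster aged 24 h, pooled from males and females. All came from 1 transgenic line, which stably expresses the gene Coop (CG1621) with a C-terminal GFP tag, and there were 3 biological replicates of this single group, with nothing to compare it to. The labels disagree in part: a free-text line calls the libraries input controls, but the assay title, antibody field and deposited notes describe ChIP-seq (chromatin immunoprecipitation and sequencing) against another control. The lists were taken as ChIP lists of Coop-eGFP, on which all values rest. The promoter that drives the transgene and the tissues that express it are not given in the sources used here. In whole animals, weak binding in many cells and strong binding in few cells cannot be told apart.

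Sites far from promoters in the fly genome include enhancers, which act on genes at a distance, as well as promoters of long non-coding RNAs, insulators and Polycomb response elements. Developmental regulators and secreted signals are often flanked by long intergenic stretches that hold many enhancers, whereas housekeeping genes are mostly regulated from their promoters. The corepressor Coop binds Pangolin, the TCF factor through which Wingless signalling acts on its target genes.

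The sequences at 4 of the 6 strongest members are printed first, because they are among the highest signals of the class. They are the strongest members on the arms from which sequence is printed, and those ranked 1 and 5 lie on another arm. Each is the forward strand of dm6, 5′ to 3′, from 100 bp before to 100 bp after the summit, taken from the RefSeq release 6 genome.

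The capitals mark the 6-base word CACTGA or its reverse complement TCAGTG, which is taken up again below.
Cyt-c1L to eEF1gamma, chr3R:29214345-29214545: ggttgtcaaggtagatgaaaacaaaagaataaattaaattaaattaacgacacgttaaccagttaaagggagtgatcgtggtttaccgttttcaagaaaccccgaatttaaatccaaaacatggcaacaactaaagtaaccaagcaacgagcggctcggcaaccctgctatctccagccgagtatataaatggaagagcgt
CG4004 to Paics, first summit, chrX:12751293-12751493: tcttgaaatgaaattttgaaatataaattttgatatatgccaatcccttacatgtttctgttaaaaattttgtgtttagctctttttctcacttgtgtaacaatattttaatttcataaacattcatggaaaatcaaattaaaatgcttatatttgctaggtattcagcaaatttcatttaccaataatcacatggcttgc
CG4004 to Paics, second summit, chrX:12752259-12752459: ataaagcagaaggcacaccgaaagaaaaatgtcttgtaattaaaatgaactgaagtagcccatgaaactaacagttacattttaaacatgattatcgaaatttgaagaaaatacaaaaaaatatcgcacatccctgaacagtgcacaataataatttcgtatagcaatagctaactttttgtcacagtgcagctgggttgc
CG7320 to CheA75a, chr3L:18235925-18236125: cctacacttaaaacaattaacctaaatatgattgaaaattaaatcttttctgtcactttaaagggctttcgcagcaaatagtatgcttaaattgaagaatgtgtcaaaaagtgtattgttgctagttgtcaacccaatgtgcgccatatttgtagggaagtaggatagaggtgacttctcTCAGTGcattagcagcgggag

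The summit beside eEF1gamma lay 117 bp from the annotated start of the non-coding RNA lncRNA:CR31044. Both summits between CG4004 and Paics lay within 500 bp of the start of lncRNA:CR44619. The marked word was in the CG7320 window alone of these 4.

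A further 4 members, chosen after the data were seen, hold the word on both sides of the summit in opposite orientation. They are shown because the orientation of this word is the sequence pattern described below. Each is 300 bp, with the same build and strand, and the capitals mark CACTGA or TCAGTG.
CG31495 to CG14362, chr3R:13845197-13845496: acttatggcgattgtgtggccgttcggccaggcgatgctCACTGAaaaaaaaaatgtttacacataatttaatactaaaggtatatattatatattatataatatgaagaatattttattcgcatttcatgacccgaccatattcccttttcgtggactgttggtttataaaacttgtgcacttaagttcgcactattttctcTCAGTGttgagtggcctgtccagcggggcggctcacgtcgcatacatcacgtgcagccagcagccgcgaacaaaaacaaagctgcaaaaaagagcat
sob to odd, chr2L:3594059-3594358: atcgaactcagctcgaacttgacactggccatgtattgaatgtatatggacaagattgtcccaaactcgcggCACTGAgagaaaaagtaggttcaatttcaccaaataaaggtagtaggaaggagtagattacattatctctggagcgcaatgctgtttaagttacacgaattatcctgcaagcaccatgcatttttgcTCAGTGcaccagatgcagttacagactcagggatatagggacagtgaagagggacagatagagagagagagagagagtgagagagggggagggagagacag
CG13689 to lectin-21Cb, chr2L:609545-609844: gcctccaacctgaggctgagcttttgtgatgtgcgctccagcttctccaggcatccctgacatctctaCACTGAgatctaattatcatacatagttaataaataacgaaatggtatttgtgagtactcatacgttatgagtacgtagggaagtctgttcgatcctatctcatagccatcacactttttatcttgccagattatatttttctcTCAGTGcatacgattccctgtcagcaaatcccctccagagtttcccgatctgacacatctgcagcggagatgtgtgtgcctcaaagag
Or67d to CG12362, chr3L:10328734-10329033: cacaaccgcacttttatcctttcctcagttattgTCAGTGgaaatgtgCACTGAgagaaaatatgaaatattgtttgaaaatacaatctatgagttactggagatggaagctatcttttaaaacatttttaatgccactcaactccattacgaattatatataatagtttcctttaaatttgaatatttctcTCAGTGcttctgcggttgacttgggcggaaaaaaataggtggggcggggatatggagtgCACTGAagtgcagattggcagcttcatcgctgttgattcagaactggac

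In the sob to odd window, between a pair of related zinc finger genes of leg segmentation, CACTGA was centred at -75.5 bp from the summit and TCAGTG at 51.5 bp. In the CG13689 window the centres lay at -79.5 and 64.5 bp. Read along its own strand, the word runs toward the summit from both sides. The Or67d window also holds outward copies, centred at -113.5 and 103.5 bp.

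Replicate 1 stood apart from the others in the members it held. Each replicate list was limited to its strongest regions, as many as the thresholded list holds, and a member counted as found where such a region had its summit within 100 bp of the member's. Replicate 1 held 57.1% of members, replicate 2 held 86.6% and replicate 3 held 85.2%. For the other peaks these shares were 70.8%, 81.9% and 77.4%. Peaks in gene bodies more than 5000 bp from a TSS had 61.8%, 85.2% and 82.9%. Intergenic peaks 500 to 5000 bp from a TSS had 63.1%, 84.0% and 84.0%. The low share of replicate 1 was thus not particular to members. Peaks within 500 bp of a TSS had 77.3%, 79.5% and 72.1%. The mean difference between members and other peaks was -0.400 points ± 11.6 (SD, n = 3), with an exact two-sided sign-flip permutation p of 1. With 3 replicates that test cannot give a p below 0.25. A total of 281 members (45.3%) were found in all 3 replicates, near the 48.0% of all thresholded peaks. By replicate the share of all peaks found was 69.5%, 82.3% and 78.1%. Without replicate 1, 75.2% of members were found in both other replicates, which was 9.59 points more than for the other peaks. Found in no replicate were 3 members (0.484%) and 95 other peaks (1.58%).

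The replicates differed by base composition. A total of 185 members (29.8%) were found in replicates 2 and 3 and missed in replicate 1, against 17.3% of other peaks, and their median GC content was 32.8% within 100 bp of the summit. Of the 79 members below 30% GC, replicate 1 held 19.0%, replicate 2 held 93.7% and replicate 3 held 89.9%. In the band from 40% to below 45% GC the shares were 75.4%, 93.4% and 80.3%, and from 50% GC upward they were 70.9%, 62.1% and 76.7%. Replicate 1 was the lowest of the 3 below 30% GC and lay between the others from 50% GC upward. Other peaks below 30% GC were found in 43.8%, 95.9% and 88.1%. The part that library preparation or sequencing had in this difference was not tested.

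**Figure D1:**
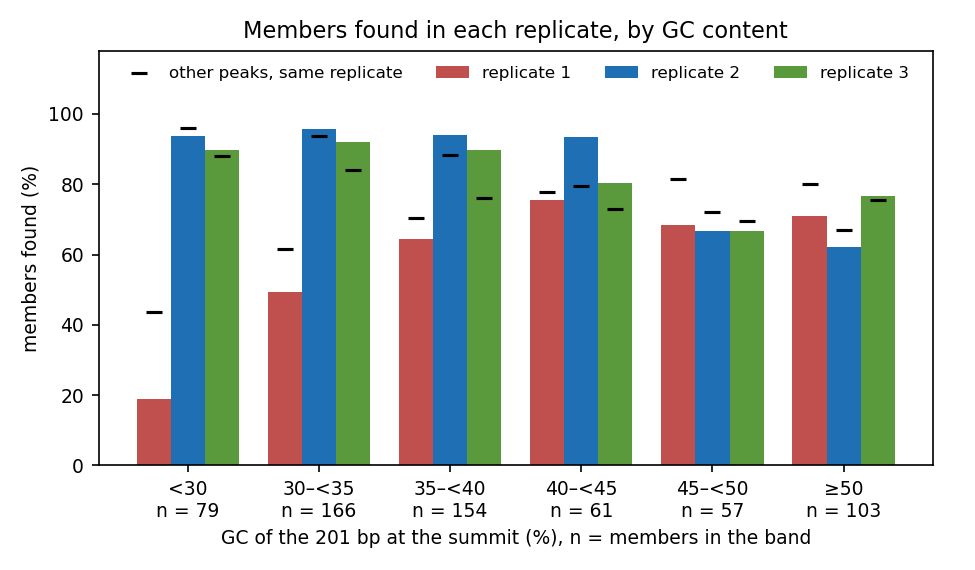
Bars give the percentage of members found in each replicate by GC content within 100 bp of the summit, with the number of members under each band. Black dashes give the other thresholded peaks of the same band and replicate. Below 30% GC the bar of replicate 1 stands at 19.0%, and those of replicates 2 and 3 stand at 93.7% and 89.9%.

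Members were sparse for the sequence open to them. Eligible sequence, meaning intergenic positions more than 5000 bp from a TSS, took up 25.99 Mb or 19.4% of the arms with peaks. It is rich in repeats, and only 17.3 Mb of it (66.5%) starts a 36-base word that is unique in the genome, against 92.7% of positions elsewhere. Over such unique positions there were 35.9 members per Mb, against 60.03 other peaks per Mb elsewhere. Gene bodies more than 5000 bp from a TSS held 33.7 peaks per Mb, close to the value of the members, and intergenic sequence between 500 and 5000 bp from a TSS held 45.8. By arm the member density was 48.8 on 3L, 37.9 on 3R, 35.02 on 2R, 30.2 on 2L and 21.5 on X.

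The same direction was seen in each replicate. Among as many of the strongest regions of each list, replicate 1 held 460 members of the class (6.94%), replicate 2 held 649 (9.79%) and replicate 3 held 684 (10.3%). The mean was 9.02% ± 1.82 (SD, n = 3), against 14.7% of unique sequence, with an exact sign-flip p of 0.25. All 3 values lay below the sequence share.

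The class was rarest among the strongest regions. It made up 6.40% of the first 1000 regions of the pooled list. In the first 1000 regions of replicates 1, 2 and 3 it made up 5.40%, 6.70% and 6.40%. At ranks 29001 to 30000 these shares were 14.5%, 18.2% and 20.1%, and 17.2% in the pooled list. From the first 1000 regions to the last 10000 of each list the share rose by 10.6 points ± 2.62 (SD, n = 3), in 3 of 3 replicates, with an exact sign-flip p of 0.25. The last bin of the pooled list and of replicates 2 and 3 stood above the 14.7% of unique sequence that is eligible. How far weak regions of the relaxed lists are binding sites was not tested.

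**Figure D2:**
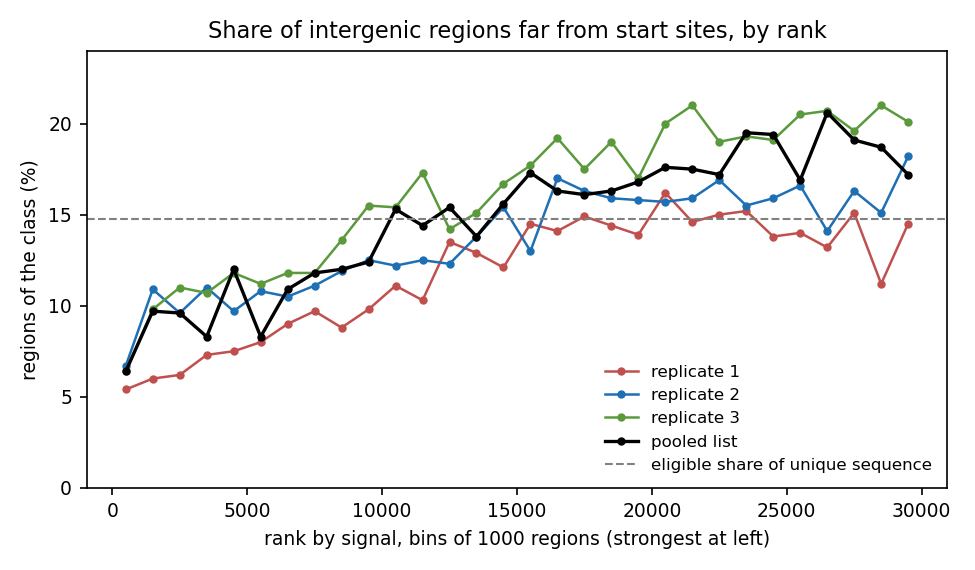
The share of intergenic regions far from start sites is plotted in bins of 1000 regions ranked by signal, for the pooled list (black) and for each replicate (coloured). The dashed line is the eligible share of unique sequence, 14.7%. The first bins lie between 5.40% and 6.70%, and all 4 lists rise with rank, with replicate 1 the lowest replicate in most bins.

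The signal of a peak is the authors' caller score and was used within a list only. Signals of members ran from 171 to 3503, with a median of 269, against a median of 289 for other peaks. Peaks in gene bodies far from a TSS had a median of 271, and intergenic peaks nearer to a TSS had 300. The lower median was thus not particular to members. A total of 5 members were among the 100 strongest peaks and 64 among the first 1000. Signal was not ordered by distance, with a Spearman's rho of -0.0358 with TSS distance across the 620 members, which share libraries and are not independent.

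The strongest member lay between Su(z)2, a Polycomb group gene, and CG13323, at position 13035333 of arm 2R, 11923 bp from the nearest TSS. Its signal was 3503, and it ranked 23, 12 and 22 in replicates 1, 2 and 3. The next lay at 29214445 on 3R, between Cyt-c1L, a cytochrome c1-like gene, and eEF1gamma, a translation elongation factor gene. Its signal was 2897 and its ranks were 40, 32 and 21. Between CG4004 and Paics, a gene of purine synthesis on X, lay 5 members, the strongest 3 of them at 12751393, 12752359 and 12754522. The signals of these 3 were 2781, 2554 and 1395.

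The member between RYBP, which encodes a Polycomb-associated protein, and the F-box gene Ppa had a signal of 1857 and ranks of 82, 51 and 623. Replicate 3 placed it lower than the others did. A member between Ir68a and scyl, a stress-induced inhibitor of TOR-dependent growth, had a signal of 1540 and ranks of 114, 198 and 163. Between CG18404 and heca, a gene of imaginal cells, lay 9 members, and the signals of the strongest 3 were 1418, 1274 and 1246. The remaining named members lay between CG7320 and CheA75a (1743), between CG43336 and pxb (1329), between the Wnt ligand genes Wnt6 and Wnt10 (1321), between CG9300 and the potassium channel gene Shal (1241), and between Ids and the receptor tyrosine kinase inhibitor gene sty (1236).

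**Figure D3:**
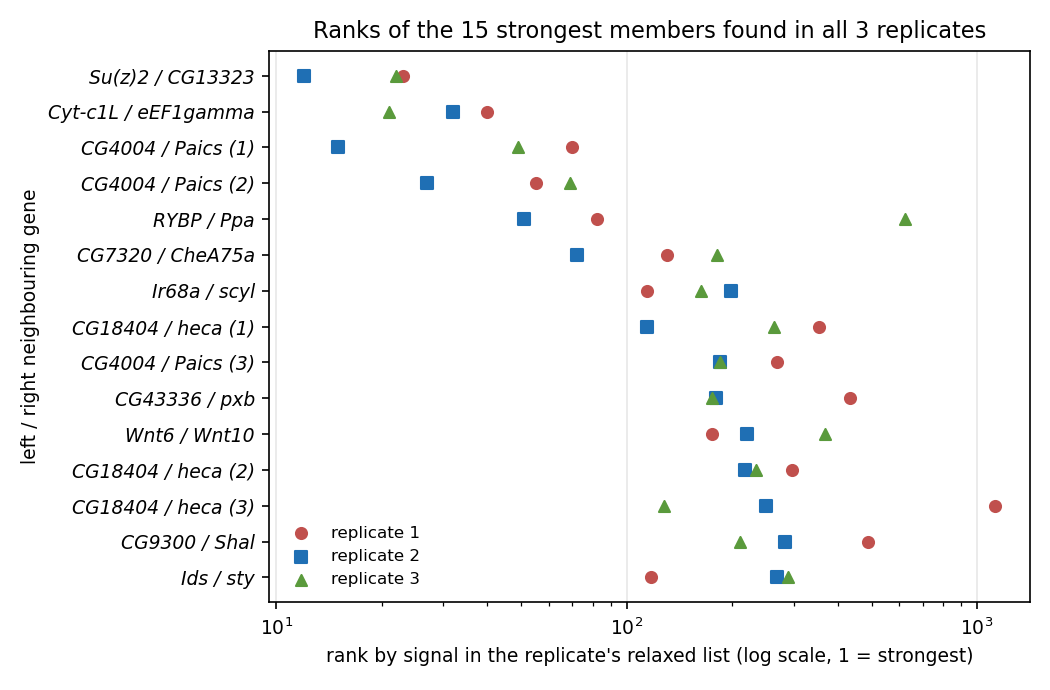
Each row is 1 of the 15 strongest members found in all 3 replicates, named by its left and right neighbouring gene, and each symbol is its rank in 1 replicate on a log axis. The first 4 members rank between 12 and 70 in every replicate. The RYBP member at 623 in replicate 3 and a heca member at 1126 in replicate 1 lie farthest from their partners.

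Distances to the nearest TSS had a median of 10734.5 bp and reached 62647 bp. A total of 340 members lay over 10000 bp away, 105 over 20000 bp and 43 (6.94%) over 30000 bp, where 15.3% of unique eligible sequence lies. The 5 farthest members had modest signals. Of them, 4 lay between Or67d, which encodes a pheromone receptor, and CG12362, at 58768 to 62647 bp from a TSS with signals of 175 to 380. The fifth lay between the POU factor gene vvl and Prat2, at 57499 bp with a signal of 211. None of these 5 was found in all 3 replicates. Just inside the limit were summits nearest to hh at 5012 bp (signal 201.3), CG14147 at 5026 bp (407) and Tollo at 5027 bp (414). Just outside were summits nearest to eEF1gamma at 4977 bp (377) and to Naa15-16 and CG8117, both at 4992 bp (470 and 176).

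Members were spread unevenly over intervals. Of 1460 intergenic intervals with eligible sequence, 244 held a member, and 379 of the 556 intervals with over 10000 bp of unique eligible sequence held none. The 34 intervals with 5 or more members held 251 members (40.5%) in 7.41% of unique eligible sequence. These intervals were picked by their count, so this is a description. In the replicate lists 22, 41 and 40 intervals held 5 or more.

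The interval between CG7320 and CheA75a on 3L, 48450 bp long, held 14 members. All 14 were found in replicates 2 and 3 and 11 in replicate 1, and their signals had a median of 366 and a maximum of 1743. The interval between hng3, a MADF-domain gene, and CG13898 held 12 members with a maximum of 667. It also held the longest run of members with gaps of at most 5000 bp, which was 11 over 23380 bp. The interval between plh and corto also held 12, of which 4 were found in all 3 replicates.

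Close spacing was seen in other classes too. Another thresholded summit lay within 2000 bp of 45.3% of members, 50.7% of intergenic peaks nearer to a TSS, 40.2% of peaks in gene bodies far from one and 54.7% of those in gene bodies nearer to one. A total of 32 runs held 4 or more members and 178 members (28.7%) in all. Runs of 9 included those between CG7320 and CheA75a and between Ids and sty. Runs of 8 lay between CG13898 and Sf3b3 and between CG6163 and CG11726. Runs of 7 lay at heca, between NijA and CG43245, and between CG44623 and CG8654, and a run of 6 lay between Qsox2 and Eip93F.
Runs of 5 lay between CG4004 and Paics, CG13896 and hng3, CG11550 and CG42693, plh and corto, CG13300 and CG42747, CG4372 and CG9294, mab-21 and rux, CG43402 and CG31928, and Su(z)2 and CG13323. Runs of 4 included those between RYBP and Ppa, Tollo and Best4, CG45544 and CG14506, CG6168 and CG6163, plh and corto, soti and cv-c, hh and unk, drm and CG43815, hry and SrpRbeta, CG32447 and CG11247, CG15258 and CG44869, and salr and salm. Of the 4 members of the run between the related spalt genes salr and salm, none was found in all 3 replicates and the highest signal was 213. The whole interval between these genes held 5 members, with a highest signal of 269, and none was found in all 3 replicates.

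Long intervals without members also occurred. Between the cell death genes grim and rpr, the second of which is induced by ecdysone at metamorphosis, 84017 bp of unique eligible sequence held no member and none of the strongest regions of any replicate. Elsewhere in the same gene cluster of 3L, 3 members lay between hid, also a cell death gene, and CG7320, with signals of 1165, 363 and 1003. The first had ranks of 599, 241 and 239.

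Neighbouring genes were compared with 12 lists of gene families by density, since long intervals offer more sequence. Members flanked by a gene of a list were counted per Mb of unique eligible sequence beside such genes, with 35.9 per Mb overall. Signalling ligand genes had the highest density, with 21 members beside 9 of 14 such genes, or 117.5 per Mb. In replicates 1, 2 and 3 the density was 61.6, 112 and 117.5 per Mb, against 26.6, 37.5 and 39.6 over all eligible sequence. It was higher in 3 of 3 replicates, with an exact sign-flip p of 0.25. Only 0.179 Mb of unique sequence lies beside these genes, so few members set this value.

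The ligands were of several pathways. The Wnt ligand gene wg was flanked by 5 members with a highest signal of 515. The Hedgehog gene hh and the BMP ligand gene dpp were each flanked by 4, with highest signals of 434 and 426, and the EGF receptor ligand gene vn by 3, with 298. At wg, the pair of members at 7320151 and 7321304 on 2L ranked 1414 and 1081 in replicate 1, 1647 and 1970 in replicate 2, and 2222 and 1234 in replicate 3. A neighbour at 7323177 with a signal of 272 was missed in replicate 1. Of the 4 members at dpp 3 were found in all 3 replicates, and of the 4 at hh only 1 was.

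Genes of the Wingless pathway and its targets were flanked by 29 members (66.6 per Mb, 45.9, 59.7 and 68.9 by replicate). The list shares wg and dpp with the ligands, hth, en and Dfd with the homeodomain list, and vg with the other developmental transcription factors. These lists are thus not separate observations. Its strongest members were the one between Wnt6 and Wnt10 and those at dally, a heparan sulphate proteoglycan gene (809), at wg (515) and at dpp. Other developmental transcription factor genes were flanked by 68 members (58.0 per Mb, 35.8, 57.1 and 63.9 by replicate). Their strongest lay between sob and odd (669), at hry, the pair-rule gene hairy with 10 members (662), and at the T-box gene mid, also with 10 (510). Both lists stood above the overall density in 3 of 3 replicates, each with an exact sign-flip p of 0.25.

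Genes on the list of Hox and other homeodomain regulators were flanked by 50 members (38.0 per Mb), near the density over all eligible sequence. They included Antp (684), the head gap gene ems (508), the zinc finger gene tsh (500) and Awh (429). Their density was 25.8, 42.5 and 34.9 per Mb by replicate. Ecdysone regulators had 12 members (38.8 per Mb, 32.3, 42.0 and 32.3 by replicate), of which 8 lay between Qsox2 and Eip93F, an ecdysone-induced transcription factor gene (979), 3 at hid (1165) and 1 at Cyp18a1, which encodes an ecdysone-inactivating enzyme (214). That count lacks phantom, a gene of ecdysone synthesis that is phtm in the annotation and phm in the list. With phtm, which was added after the data were seen, the list had 13 members (40.2 per Mb). The Notch list had 3, all at its ligand gene Ser (246), none of them found in all 3 replicates. Neuronal guidance and adhesion genes had 28 members (21.6 per Mb), of which 9 flanked the Toll family receptor gene Tollo (1226). The next in this list were dpr17 (548), caps (399) and 18w (367). The density of this list was 10.8, 26.2 and 27.0 per Mb by replicate, below the overall value in each, with an exact sign-flip p of 0.25.

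Chemoreceptor genes had 18 members (27.7 per Mb, 16.9, 26.2 and 24.6 by replicate), of which 10 lay beside Or67d (481). Others were Ir68a (1540) and the adjacent Gr93a and Gr93b (499). Cell death genes had 3, all at hid. Fat body, cuticle protein and ribosomal protein genes flanked no member, but only 0.0559, 0.0622 and 0.215 Mb of unique eligible sequence lies beside them. Over all 12 lists 206 members were flanked by a listed gene, at 38.9 per Mb. With each member given to the gene of the nearest TSS only, 120 were. The lists were drawn up with earlier results of these data known.

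Some members lay at RNA genes, which the choice of members ignored. A total of 79 (12.7%) lay inside a non-coding RNA gene, against 8.42% of unique eligible sequence. The share was 14.8%, 10.8% and 12.3% in the replicate lists, above the sequence share in 3 of 3 (exact sign-flip p of 0.25). Within 500 bp of an RNA start lay 46 members (7.42%), against 3.795% of sequence, of which 44 were at non-coding RNAs and 2 at tRNA genes. The replicate shares were 10%, 7.09% and 7.31%. Members inside lncRNA:CR46006 numbered 7, and lncRNA:let7C, the primary transcript of the let-7 complex of microRNAs that act at metamorphosis, held 3 with a highest signal of 358. A member with a signal of 429 lay 100 bp from the start of the microRNA gene mir-276a.

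No member lay inside an annotated transposable element, which cover 4.289% of unique eligible sequence. The replicate lists had 0.217%, 0% and 0.146%. Any repeated 36-base word within 100 bp of the summit was present at 2 of the 620 members and at 30 of the 6006 other peaks. Among the 1028 peaks in gene bodies far from a TSS, 3 had one, so its rarity was not particular to members. With RNA genes added to the annotation, so that their bodies and starts were also avoided, 352 members were left.

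The summits of members were AT-rich and lay between GC-rich shoulders. Median GC content was 36.8% at member summits and 43.3% in flanks of the same width centred 500 bp away. At other peaks the values were 40.3% and 42.3%. Peaks in gene bodies far from a TSS had 37.3% and 41.8%, and intergenic peaks nearer to a TSS had 37.8% and 40.8%. AT-rich summits were thus not particular to members. Unique eligible windows had 41.8%. In 51 bp windows the mean fell to 36.9% at the summit and rose to 47.4% at 250 bp on either side. The replicates did not share the depth of the dip. Summits of the class had a median of 42.8% GC in replicate 1, 35.8% in replicate 2 and 37.3% in replicate 3, with flanks at 41.5%, 43.3% and 43.0%. Regions in gene bodies far from a TSS also had summit medians of 42.8%, 35.8% and 37.3%. For the class, the summit lay above the flank in replicate 1. The mean difference of -3.98 points ± 4.61 (SD, n = 3) had an exact sign-flip p of 0.5. With the regions of members found in all 3 replicates alone, the difference was -5.10 points ± 0.448 (SD, n = 3), with an exact sign-flip p of 0.25. That choice keeps largely the same sites in each replicate, so the small spread follows from it in part. It does not settle how the replicates differ.

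**Figure D4:**
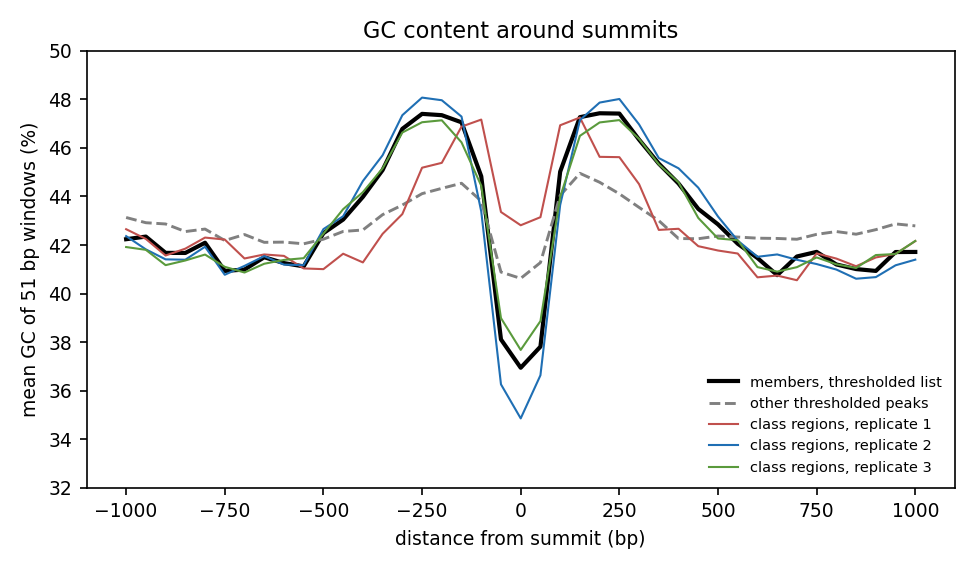
Mean GC content of 51 bp windows is plotted against distance from the summit, for members (black), other peaks (dashed) and the class regions of each replicate (coloured). Members fall to 36.9% at the summit between shoulders of about 47.4%. Replicate 1 falls only to 42.8%.

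Some motifs of promoter factors were at lower shares of members than of other peaks, and motifs of some other factors were not. Each of 30 motifs was searched on both strands within 100 bp of the summit and in the flanks. The DRE (TATCGATA), the site of the promoter factor Dref, was at 0 of 620 member summits, which allows a share of up to 0.484% by counting error alone, against 2.43% of other peaks and 0.407% of eligible windows. Motif 1 of the factor M1BP (GGTCACACT) was at 1 member summit (0.161%), against 1.85% of other peaks. The GAGA repeat (GAGAGAG) was at 2.26% of member summits, against 7.41% of other peaks. Peaks in gene bodies far from a TSS had the DRE, M1BP and GAGA motifs at 0.486%, 0.584% and 4.38%. Intergenic peaks nearer to a TSS had them at 0.499%, 0.166% and 4.83%. These classes were also below the other peaks as a whole, so low shares were not particular to members. M1BP and GAGA were singled out after their values were seen.

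Against their own flanks, 4 motifs were higher at summits in 3 of 3 replicates. Those present at 10 or more members were Ohler motif 7 (CATCNCTA), at 2.26% against 1.13%, and Ohler motif 6 (GGTATTT), at 4.35% against 3.63%. Other peaks had Ohler motif 7 at 2.61% against 1.44% of flanks and Ohler motif 6 at 5.04% against 3.81%. The remaining motifs were the Ets site at 8 members (1.29%, against 0.403% of flanks) and the Su(Hw) core at 5 (0.806% against 0.323%). Other peaks had these at 0.916% and 0.633% of summits, and intergenic peaks nearer to a TSS at 1.16% and 1.83%. Peaks in gene bodies far from a TSS had 0.389% for each. Lowest by ratio were the DRE, the Ftz-f1 site (CAAGGTCA), at 0 members against 0.161% of flanks, and the Mad site (GCCGNCGC), at 0.968% against 3.31%. The Pangolin HMG site (CTTTGAT), looked up because Coop binds Pangolin, was at 18 members (2.90%), against 3.47% of flanks and 3.92% of eligible windows. It was lower at summits in 3 of 3 replicates. Other peaks had this site at 2.90% of summits, against 3.61% of flanks. No motif passed, the lowest adjusted p being 0.469 (exact sign-flip test, Benjamini-Hochberg over 30 motifs).

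All 2080 words of 6 bases were counted, with a word and its reverse complement taken as 1, and the 5 of highest ratio are named. TCCGGA, a palindrome, was at 25 member summits (4.03%) against 1.05% of flanks. Other peaks had TCCGGA at 3.65% of summits and 2.59% of flanks, and eligible windows had it at 2.30%. Its high ratio at members thus goes with a low share in their flanks. CACTGA was at 137 (22.1%) against 7.90% of flanks and 8.76% of eligible windows. In replicates 1, 2 and 3 CACTGA was at 18.7%, 23.3% and 21.3% of summits. Over the replicates its share at summits exceeded that in flanks by 13.0 points, which fell to 3.25 points in windows of 50 bp to either side of the summit. At other peaks it was at 14.4% against 8.21%. The word mostly lay outside the narrower window, as its positions below show. ACTGAG was at 15.2%, ACACTG at 19.2% and AGTGTA at 21.0% of member summits, against 5.40%, 6.85% and 7.58% of flanks. Other peaks had these words at 11.0%, 16.8% and 12.9% of summits. Peaks in gene bodies far from a TSS had them at 13.5%, 17.1% and 18.6%. Intergenic peaks nearer to a TSS had 12.8%, 18.8% and 18.8%. CACTGA overlaps ACTGAG and ACACTG by 5 bases, and AGTGTA reads TACACT on the other strand, which overlaps ACACTG, so these are not separate observations. Base composition moved with the words: of 36 words without G or C, 35 were higher at summits, and of 36 words made only of G and C, 3 were. Its part was not tested, and the 5 named words hold 2 or more G or C bases each.

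CACTGA had a direction. It was read as pointing toward the summit when it lay on the forward strand to the left or on the reverse strand to the right. At 40 to 120 bp from the summit it pointed toward the summit in 116 members (18.7%) and away in 29 (4.68%). Toward the summit it was at 13.0%, 19.7% and 17.1% in replicates 1, 2 and 3, and away at 5%, 4.62% and 4.82%. The difference was 11.8 points ± 3.55 (SD, n = 3), positive in 3 of 3 replicates, with an exact sign-flip p of 0.25. The median distance of inward words within 20 to 180 bp was 84.0 bp in members, and 87.0, 87.5 and 85.5 bp in the replicates. In 15 members, among them those printed above, it pointed inward from both sides. The word, the band and the split by direction were chosen after the data were seen.

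**Figure D5:**
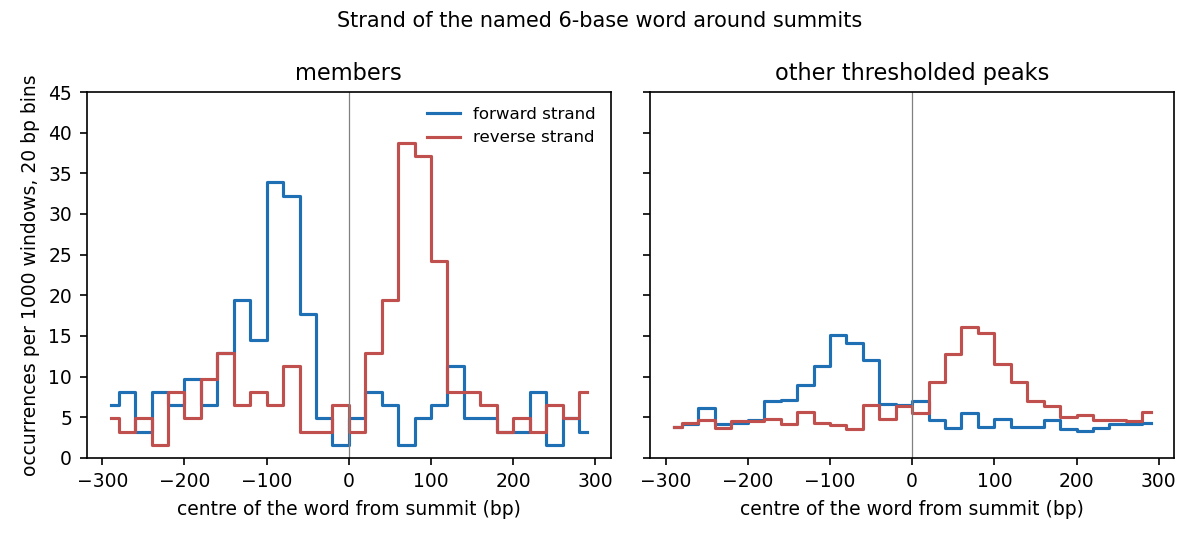
Occurrences of CACTGA per 1000 windows are plotted in 20 bp bins against distance from the summit, on the forward strand (blue) and the reverse strand (red), for members (left) and other peaks (right). In members the forward strand reaches 33.9 at -90 bp and the reverse strand 38.7 at 70 bp. Other peaks show the same arrangement at a lower level.

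The direction was seen in other classes at other sizes. Peaks in gene bodies far from a TSS had 15.3% toward and 2.82% away, and intergenic peaks nearer to a TSS had 12.8% and 3.33%. Promoter peaks had 6.08% and 3.91%. Whether these classes differ was not tested. Among the 206 strongest members 22.3% had the word pointing inward and 6.80% outward, and among the 207 weakest 12.1% and 3.38%. Class regions of the pooled list below the thresholded ranks had 8.10% toward and 4.99% away, and the weakest 1000 of these had 6% and 5%. Members of 45% GC or more had 4.38% in both directions. Members from 30% to below 35% GC had 27.7% toward and 5.42% away.

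Other words had a direction too, and how often they adjoin CACTGA was not counted. Among 6-base words counted by direction in the same band, GAGAAA led by ratio with 130 members toward and 18 away, and ACACTG had 109 and 18. TACTAA, a word higher at summits than in flanks, had 17 toward and 26 away. A match is a description of letters and does not show which factor, if any, binds them.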

How the data were processed

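The authors deposited 5 peak lists on dm6: a thresholded one, a relaxed one of 30000 regions made from all replicates pooled, and a relaxed one of 30000 regions per replicate. Per the notes deposited with each library, every replicate list rests on the same control alignment, so an error of the control reaches all 3. Fragments of 200 to 800 bp were made by sonication, per the labels. The deposited score of each region is the signal of the authors' peak caller. The deposited −log10 q was 4.19 for every thresholded peak and ranked nothing. Which peak caller was used, in which version, and the cut-off on the irreproducible discovery rate (IDR) are not given in the sources used here, and depth is unknown. The thresholded peaks were the strongest regions of the pooled list. A total of 11 member entries repeat an interval that has several summits.

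Genes came from Ensembl release 115 (BDGP 6.54), and sequence from the RefSeq release 6 genome, whose arms all regions fit within. A 36-base word was called unique when it occurs once in the genome on either strand. Motif and word counts are presence within 100 bp of the summit and in windows of the same width centred 500 bp to each side. Differences over the 3 replicates were tested with an exact two-sided sign-flip permutation test, whose smallest p is 0.25, so no comparison can pass 0.05. Peaks of 1 list are not replicates and were not tested against each other. Scripts (Python 3.11.15, numpy 2.4.6, pandas 2.3.3, scipy 1.17.1) were tested on simulated data.

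The text names the 15 strongest members found in all 3 replicates, the 5 farthest, those next to the distance limit, the 3 fullest intervals, all runs of 4 or more, up to 4 neighbours per gene list, and the motifs and words of highest or lowest ratio of summit to flank. One of the fullest intervals, with its runs, is not reported here. The members, lists and rules were chosen with earlier results of these data known. Gene list names were changed to the annotation's spelling after the files were read, and 1 of 442, phm for the gene phantom, was not matched because the annotation calls it phtm. The plh interval, the loci at wg, hh, dpp and hid, the empty interval between grim and rpr, the split by GC, the intervals of 5 or more members and the direction of CACTGA were chosen after values were seen.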

Additional observations from a re-analysis of the deposited data

How the results depend on the processing

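Among alternative values of the main results, 50 kept their direction, some at a different size, 13 moved by more than the spread between replicates or by over 1.5 times, and 3 reversed. The member count of 620 became 340 at a minimum distance of 10000 bp, 352 with RNA genes in the annotation and 279 in the stronger part of the list. The share of members found in all 3 replicates was 85.3% with all relaxed regions and 80.3% in the stronger part of the list, and leaving out 1 replicate gave 49.5% to 75.2%. Its difference from other peaks, -2.91 points, was -1.31 with summits within 50 bp and reversed to 5.80 with all relaxed regions and to 1.22 in the stronger part, and ranged from -9.72 to 9.59 with 1 replicate left out, the last being without replicate 1. The cause was not tested. The density ratio of members to other peaks, 0.428 over all positions, was 0.616 without repeated tiles and 0.597 over unique positions, the latter chosen after seeing the data. The difference in median signal, -20.4, became -34.7 among peaks found in all 3 replicates and -11.6 at 2000 bp. Members beside a listed gene fell from 206 to 120 with the nearest TSS alone. Runs of 4 or more, 32, became 13 with gaps of at most 2000 bp and 8 with members found in all 3 replicates, both chosen after seeing the data. Leaving out 1 replicate gave -6.37 to -4.68 points for the class share minus the sequence share, -6.59 to -2.24 for GC at the summit minus the flank, 3.11 to 5.11 for RNA genes, 9.10 to 11.5 for the rise with rank and 10.2 to 13.7 for CACTGA toward minus away. In windows of 50 bp to either side the excess at summits over flanks fell from 13.0 to 3.25 points for CACTGA, from 11.2 to 1.84 for ACACTG, from 10.9 to 2.45 for AGTGTA and from 8.64 to 2.04 for ACTGAG. No paired analysis was possible because all 3 libraries belong to 1 group. With 3 replicates, unknown depth and 1 shared control, small differences could not be resolved.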
